A study of Rattus norvegicus with 8 samples.

Results

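Macf1, Dst, Dsp, Nav3 and Kalrn encode large proteins that tie parts of the cytoskeleton to each other, to cell junctions or to small GTPase signalling. They were chosen because each has 4 or more regions in the authors' deposited tables of differential m6A signal, and their members are all rows with exactly one of these gene names. Together they hold 24 of the 1967 listed regions (1.22%), and 5 of the 1726 named genes. The tables compare primary rat vascular smooth muscle cells, the contractile cells of the artery wall, that overexpress Mettl3, the catalytic subunit of the m6A writer, with control cells that carry the vector. The 8 libraries form 4 groups of 2: m6A immunoprecipitation (IP) and unenriched input from Mettl3-overexpressing cells, and IP and input from vector cells. The labels do not give the strain, the age, the number of animals, the means of overexpression, or whether libraries of 1 group stem from separate cell isolations. No library has a value of its own in the tables, so replicate spread is unknown throughout.

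m6A is a methyl mark on adenosines of messenger RNA, written by a complex around Mettl3 and read by proteins that affect splicing, export, translation and decay. MeRIP-seq recovers RNA fragments with an antibody to the mark, so a long transcript can give several separate regions. Macf1 and Dst encode spectraplakins, very large proteins that crosslink actin filaments and microtubules, and Dsp encodes desmoplakin, a plakin of the same wider family that anchors intermediate filaments at desmosomes. Nav3 encodes a navigator protein that binds microtubule ends, and Kalrn encodes kalirin, a guanine nucleotide exchange factor (GEF) for small GTPases with spectrin repeats, studied above all in neurons.

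The annotation and the gene lengths used here match a shared description as giant cytoskeletal linkers only in part. Neither a missing term nor a short gene shows that a protein is small or not a linker. The cellular component annotation in the authors' deposited tables gives the term cytoskeleton to Macf1, Dst and Kalrn, which 33 of the 1404 annotated genes carry (2.35%), and not to Dsp or Nav3. Dsp is annotated to the desmosome and, with Dst, to the intercalated disc, a term of 7 listed genes, whereas Nav3 is annotated only to the nucleus and the nuclear envelope. In the RefSeq gene table of assembly GRCr8, Nav3 spans 788 kb, Kalrn 606 kb, Dst 394 kb and Macf1 325 kb. Dsp spans only 48.3 kb and ranks 712 of 1594 listed genes with a length, where the other members rank from 11 (Nav3) to 70 (Macf1). The 5 members had a median length of 394 kb, against 36.7, 77.4 and 89.3 kb for listed genes with 1, 2 and 3 regions; the part of gene length in the number of regions was not tested.

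Depth per library is unknown, but the folds carry traces of it. Many deposited folds have the form of means to which a constant of 0.1 was added, and the means read from them fall on steps of 0.123 in overexpressing cells and 0.503 in vector cells, taken here as 1 read over a condition's 2 libraries. In the folds a read from vector cells therefore weighs 4.09 times one from overexpressing cells; no source used here says whether that matches depth. Read numbers below are such implied reads, an inference and not values of the tables. The smallest pair of reads that gives the fold is used. For every member region a larger pair also gave the fold, such as 18 vector and 2 overexpression reads for the Dsp region starting at 29204621. Reads of 0, sums of reads and intervals below rest on this choice. No source used here says if the input entered the fold, so less m6A per RNA, less RNA per cell and fewer cells that carry the RNA cannot be told apart. Of the cell markers looked up, 1 of 8 smooth muscle genes (Cnn1, lower, adjusted p = 0.248 in the authors' deposited table) and 1 of 5 neuronal genes (Map2) had a region, and none of 7 epithelial and 4 endothelial genes did; the tables hold no level of any gene.

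The authors' deposited tables put 21 of the 24 regions lower in Mettl3-overexpressing cells and 3 higher. That is 87.5% lower, against 86.9% over all listed regions, a share close to that of the tables as a whole. At an adjusted p under 0.05 in the authors' deposited tables, 7 member regions were lower and 0 were higher. The 7 make up 29.2% of the members' regions, against 14.0% of all listed regions in either direction, 11.3% for lower and 2.64% for higher ones. Macf1 holds 4 of the 7, Dst 2 and Nav3 1. Without Macf1, 3 of 18 regions pass (16.7%). Since the members were chosen from these same tables, these shares are descriptions and were not tested.

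**Figure D1:**
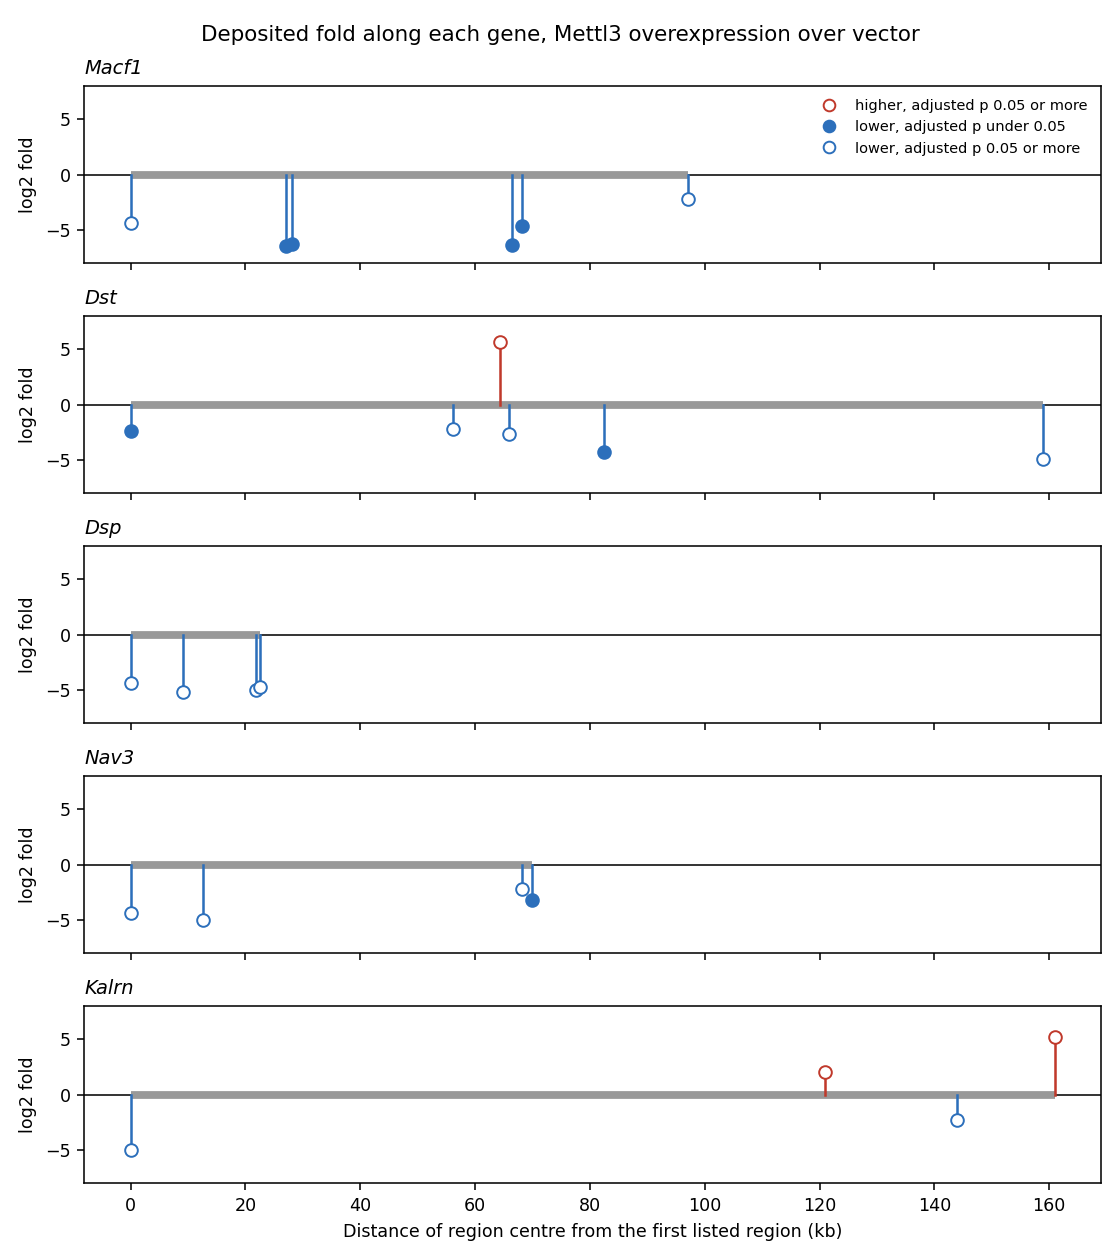
Signed log2 of the authors' deposited fold (Mettl3 overexpression over vector, vertical axis) against the distance in kb from each gene's first listed region (horizontal axis), 1 point per region and 1 panel per gene. Genes run 5′ to 3′ by their GRCr8 strand, except Nav3, which runs with the chromosome. All Macf1, Dsp and Nav3 points lie below 0, while Dst has 1 and Kalrn 2 points above 0; filled points have an adjusted p under 0.05.

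Macf1 (microtubule-actin crosslinking factor 1, transcript NM_001135758, chromosome 5) had 6 regions, all lower, and 4 of them passed. In 5′ to 3′ order, the first region (144978142 to 144978300, 159 bp) had 0 overexpression against 4 vector reads and a fold of 21.1 at adjusted p = 0.248 per the authors' deposited table. The second (144950921 to 144951280) had 0 overexpression against 17 vector reads and a fold of 86.7 at adjusted p = 0.00129 per the authors' deposited table. The third (144949901 to 144950400), at 500 bp the longest of all 24 member regions, had 0 overexpression against 15 vector reads and a fold of 76.5 at adjusted p = 0.00285 per the authors' deposited table. These neighbours lie 520 bp apart and are both empty in overexpressing cells.

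After a gap of 38 kb comes another close pair in Macf1. Its upstream region (144911676 to 144911880) had 0 overexpression reads against 16 vector reads and a fold of 81.4 at adjusted p = 0.00428 per the authors' deposited table. Its downstream region, 1395 bp away (144909901 to 144910280), had 3 overexpression against 23 vector reads and a fold of 24.8 at adjusted p = 0.000267 per the authors' deposited table, the smallest among the 24. The last region (144881060 to 144881180) had 12 overexpression against 14 vector reads and a fold of 4.51 at adjusted p = 0.248 per the authors' deposited table. The passing regions thus form 2 pairs inside the gene, and the regions at either end did not pass. Over the 6 regions the implied reads sum to 15 in overexpressing cells, against 89 in vector cells.

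The size of the Macf1 folds depends on the constant where a condition is empty. With 3 overexpression reads standing in for 0, and the weights and the constant kept, the folds of the passing regions with 0 reads came to 18.5, 16.3 and 17.4, in 5′ to 3′ order. Counting each read equally, and setting the larger number over the smaller, the exact 95% intervals of their ratios of reads began at 4.13, 3.59 and 3.86 and had no upper end. For the fifth region, with 3 overexpression reads and 23 vector reads, that ratio was 7.67, with an exact 95% interval from 2.32 to 39.9. For the last region it was 1.17, with an interval from 0.501 to 2.76 that includes 1. A ratio of 1 is no difference only if the depths are equal. In the folds a vector read weighs 4.09 times an overexpression read, and the means of this region were 1.48 (overexpression) and 7.03 (vector). Such intervals and floors cover counting error only, and equal counting assumes equal depth.

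Dst (dystonin, chromosome 9) had 6 regions over 159 kb, 5 lower and 1 higher, and the 2 that passed were lower. The authors' deposited tables assign them to 3 transcripts, ENSRNOT00000017235 for the first and last, ENSRNOT00000044452 for the second and ENSRNOT00000016538 for the 3 in between. The first region (37650033 to 37650120) had 16 overexpression reads against 22 vector reads, and its fold of 5.38 passed (adjusted p = 0.045 per the authors' deposited table). With reads counted equally its ratio was 1.38 (exact 95% interval 0.69 to 2.8), an interval that includes 1. On the scale of the folds, where a vector read weighs more, 1 is not the value of no difference. The second (37706041 to 37706420) had 18 overexpression against 21 vector reads and a fold of 4.62 at adjusted p = 0.137 per the authors' deposited table.

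The third Dst region (37714443 to 37714560) is the only higher one. It had 39 overexpression reads against 0 vector reads and a fold of 49 at adjusted p = 0.0592 per the authors' deposited table. With 3 vector reads in place of 0 its fold came to 3.05, and the exact 95% interval of its ratio of reads began at 10.1. The next region, 1240 bp downstream (37715801 to 37716180), was listed as lower with 5 overexpression against 9 vector reads and a fold of 6.43 at adjusted p = 0.148 per the authors' deposited table. Neighbouring stretches of the same Dst transcript are thus listed in opposite directions, neither with an adjusted p under 0.05.

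The fifth Dst region (37732419 to 37732580) fell, with 3 overexpression reads against 18 vector reads and a fold of 19.5 at adjusted p = 0.0037 per the authors' deposited table. Its ratio of reads was 6 (exact 95% interval 1.75 to 31.8). The sixth (37808662 to 37808725, 64 bp) had 0 overexpression against 6 vector reads and a fold of 31.2 at adjusted p = 0.159 per the authors' deposited table. Summed over the 6 Dst regions, implied reads were 81 in overexpressing cells, against 76 in vector cells, nearly even before weighting. Of the 81, 39 lie in the higher region. Weighted as in the folds, the sums were not even, with summed means of 9.97 in overexpressing cells and 38.2 in vector cells.

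Dsp (desmoplakin, transcript ENSRNOT00000018649, chromosome 17) had 4 regions, all lower, none with an adjusted p under 0.05. Every one had 0 implied overexpression reads. In 5′ to 3′ order, the vector reads were 4 (29227340 to 29227469), 7 (29218216 to 29218343), 6 (29205281 to 29205752) and 5 (29204621 to 29204900). Their folds were 21.2, 36.1, 31.2 and 26.2, and their adjusted p ran from 0.137 to 0.248 in the authors' deposited table. The 4 regions agree in direction, but the whole gene rests on 0 implied overexpression reads against 22 vector reads. Counting each read equally, the exact 95% intervals of the ratios of reads began at 0.66, 1.44, 1.18 and 0.916. Those of the first and last region include 1. In the folds a vector read weighs 4.09 times an overexpression read, so 1 is not the value of no difference there. Dsp also has the shortest span, 22.8 kb. The desmosome and adherens junction list, 16 genes around Dsp such as Dsg2, Pkp2 and Jup, had no listed region.

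Nav3 (neuron navigator 3, transcript NM_001191782, chromosome 7) had 4 lower regions, 1 of which passed. They are given by rising coordinate, since no strand was at hand. The first (52196765 to 52196934) had 0 overexpression reads against 4 vector reads, and the second (52209387 to 52209562) 0 overexpression against 6 vector reads. Their folds were 21.2 and 31.1, and their adjusted p 0.248 and 0.159, per the authors' deposited table. The third (52264902 to 52265080) had 15 overexpression against 17 vector reads and a fold of 4.46 at adjusted p = 0.159 per the authors' deposited table.

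The fourth Nav3 region (52266656 to 52266927) passed, with 5 overexpression reads against 13 vector reads and a fold of 9.24 at adjusted p = 0.0377 per the authors' deposited table. It lies 1575 bp from the third. Counting each read equally, its ratio of reads was 2.6, with an exact 95% interval from 0.87 to 9.31. On the scale of the folds, where a vector read weighs more, 1 is not the value of no difference. The Nav3 regions with reads in both conditions therefore sit together at the end with the highest coordinates, and the regions that are empty in overexpressing cells sit at the other.

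Kalrn (kalirin, transcript NM_032062, chromosome 11) was the only member with as many higher as lower regions, and none passed. Along the gene the direction alternated. The first region (72730521 to 72730697) was listed as lower with 0 overexpression reads against 6 vector reads and a fold of 31.2 at adjusted p = 0.159 per the authors' deposited table. The second (72851767 to 72851963) was listed as higher with 86 overexpression against 5 vector reads. Its fold of 4.09 is close to the listing minimum of 4, and the authors' deposited table gives adjusted p = 0.0745. Counted equally, the ratio of reads was 17.2 (exact 95% interval 7.09 to 54.3).

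The third Kalrn region (72874561 to 72874581) spans only 21 bp, with 5 overexpression reads against 7 vector reads and a fold of 5.04 at adjusted p = 0.223 per the authors' deposited table. The fourth (72891081 to 72891188) was listed as higher with 29 overexpression against 0 vector reads and a fold of 36.7 at adjusted p = 0.159 per the authors' deposited table. With 3 vector reads in place of 0 its fold came to 2.28, and the exact 95% interval of its ratio of reads began at 7.37. Implied reads over the gene sum to 120 in overexpressing cells, against 18 in vector cells. Of the 120, 86 lie in the second region. Weighted as in the folds, the summed means were 14.8 in overexpressing cells and 9.06 in vector cells. For Macf1 they were 1.85 and 44.8, a larger difference in the other direction.

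**Figure D2:**
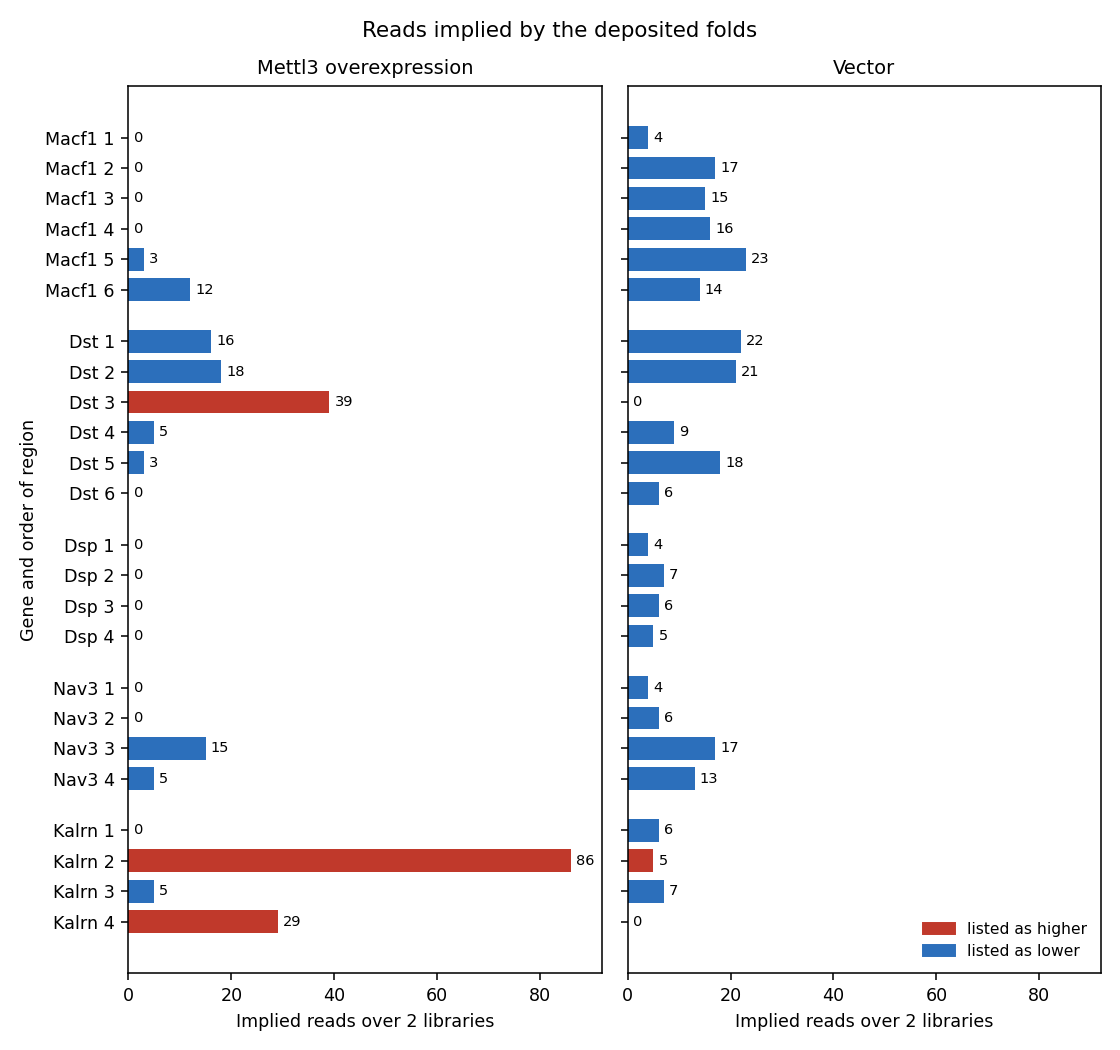
Reads implied by the authors' deposited folds for each of the 24 regions (rows, in the order used in the text), summed over the 2 libraries of Mettl3-overexpressing cells (left) and of vector cells (right). Bars are read numbers, red for regions listed as higher and blue for lower; the 3 higher regions have 29 to 86 overexpression reads, and no lower region has more than 23 vector reads.

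Numbers of reads differed by direction. The 21 lower regions had 4 to 23 vector reads with a median of 9, against 6 over all lower regions of the tables, and 12 of the 21 had 0 overexpression reads. The 3 higher regions had 29, 39 and 86 overexpression reads, and 2 of them had 0 vector reads. Weighted as in the folds, the ranges overlapped, with means of 3.57 to 10.58 in overexpressing cells for the higher regions and 2.01 to 11.57 in vector cells for the lower ones. An implied 0 in one condition was found for 14 of the 24 member regions (58.3%), against 79.3% of all listed regions. Of the 9 lower regions with reads in both conditions, 7 had an exact 95% interval of the read ratio that includes 1; among the 4 of these 9 that passed, the interval included 1 for 2, in Dst and Nav3, and did not for 2, in Macf1 and Dst. Of the 12 lower regions with 0 overexpression reads, 4 had an interval that includes 1, which makes 11 of all 21 lower regions, and none of the 3 higher regions did. This tally counts each read equally, whereas in the folds a vector read weighs 4.09 times an overexpression read. On the scale of the folds 1 is therefore not the value of no difference, so the tally cannot tell which direction is firmer.

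Within each gene the regions were separate and mostly far apart. The 19 gaps between neighbours had a median of 16.2 kb and ran from 380 bp in Dsp to 121 kb in Kalrn, counted on the genome with introns included. None was under 200 bp, the upper end of the main RNA fragment size of 100 to 200 nt, so no listed neighbours lie within a single fragment of that size on the genome. Other genes with 2 or more regions had a median gap of 20.2 kb, and 11 of their 219 gaps were under 200 bp. Member regions covered from 0.313% of their span in Kalrn to 4.42% in Dsp.

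Close spacing did not always go with the same direction. Of the 5 member gaps under 2 kb, 4 joined regions of the same direction, 2 in Macf1 and 1 each in Dsp and Nav3, and 1, in Dst, joined opposite ones. Of the 14 wider gaps, 10 joined the same direction. Over all 19 neighbour pairs 14 agreed (73.7%), against 173 of 219 in other genes with 2 or more regions (79%) and 46 of 62 in those with 3 or more (74.2%). By gene, Macf1, Dsp and Nav3 held 1 direction each and Dst and Kalrn both. Of the 187 other genes with 2 or more regions, 77.0% held 1 direction, but 160 of them have only 2 regions and agree more easily. Of the genes with 3 regions, 56% held 1 direction. With 86.9% of all listed regions lower, 2 regions of a gene mostly share a direction in any case. The agreement of the members' neighbours is thus near that in other genes with several regions, and no test of it was made.

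**Figure D3:**
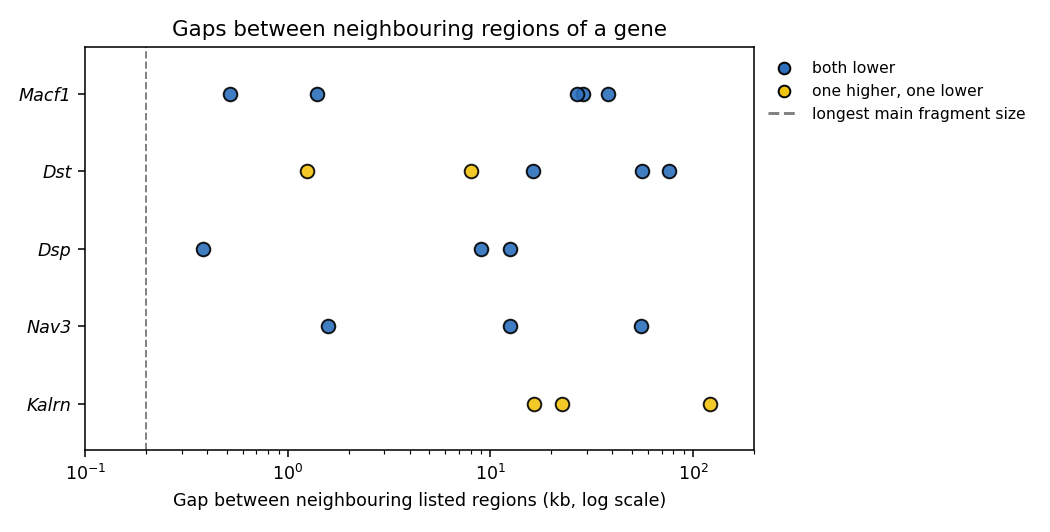
Gap between neighbouring listed regions (kb, log scale) for each gene, 1 point per gap. Blue gaps join lower regions and yellow gaps join a higher and a lower region; the dashed line is at 200 nt, the upper end of the main fragment size. The smallest gap is 0.38 kb in Dsp, and all 3 gaps of Kalrn and the 2 smallest of Dst join opposite directions.

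The region numbers in the tables show what was left out in between. They rise with position on all 21 chromosomes up to 15480, and the listed regions use 12.7% of them. From the first to the last listed region, Macf1 spans 6 numbers, Dsp 4 and Nav3 4, and all are listed. Dst spans 9 numbers with 3 unlisted, 2 between its first and second region and 1 before its last, and Kalrn spans 5 with 1 unlisted, before its second region. In all, 24 of 28 numbers are listed, but genes with several listed regions were what the choice looked for. Consecutive numbers made up 84.2% of the members' neighbour pairs, against 69.9% of those in other genes with 2 or more regions. Beyond the outermost regions, from 1 number after Dsp to 35 after Nav3 stand unlisted before the next listed gene; which of them lie in the members is not known here.

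Just under the 4 regions of Dsp, Nav3 and Kalrn, 25 genes had 3. Among the other genes with at least 4, AABR06024257.1 (chromosome 3) had 5 lower regions and 1 higher, none passing, with folds from 5.21 to 41.4 in the authors' deposited table. Among the 25 genes with 3 regions, 14 had 1 direction and 11 both, and 10 had a passing region. Trio, the GEF most closely related to Kalrn, is one of these 25, with 2 lower regions and 1 higher; its passing lower region on chromosome 2 (100229160 to 100229351) had 0 overexpression against 11 vector reads and a fold of 56.5 at adjusted p = 0.048 per the authors' deposited table.

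The 91 genes of 5 related lists gave 23 with a region, 17 with a lower and 7 with a higher one, and 6 of the 23 passed, where 15.0% of all genes with a region did. In the plakin and spectrin-repeat list, 5 of 17 genes had a region, all lower. Sptbn1, the main beta spectrin outside red cells, passed with 21 overexpression against 35 vector reads and a fold of 6.62 at adjusted p = 0.00748 per the authors' deposited table. The others were Plec (plectin), Syne3 and Syne2, linkers of the nuclear envelope, and 1 further spectrin gene, with 0 overexpression reads against 6 to 8 vector reads and none passing. In the microtubule plus-end and navigator list, 4 of 17 genes had a region. Camsap1, which caps microtubule minus ends, had a higher passing region, with 58 overexpression against 0 vector reads and a fold of 72.3 at adjusted p = 0.00522 per the authors' deposited table. Nav2, a relative of Nav3, had a higher region with 30 overexpression reads against 1 vector read. Clasp1, a microtubule plus-end protein, had a lower region with 5 overexpression against 6 vector reads, and Map2, a neuronal microtubule-associated protein, one with 0 overexpression against 4 vector reads. All 3 of these had adjusted p = 0.248 per the authors' deposited table.

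Among 25 Dbl-family GEF genes, 7 had a region, and Dnmbp (a higher region) and Trio (a lower one) passed. The higher Dnmbp region had 49 overexpression against 0 vector reads and a fold of 61.3 at adjusted p = 0.024 per the authors' deposited table. Of the further ones, Arhgef12 had a higher region with 93 overexpression against 3 vector reads and adjusted p = 0.0503, and Arhgef3 a lower one with 0 overexpression against 9 vector reads and adjusted p = 0.0592, per the authors' deposited table. In the list of other very large cytoskeletal genes, 7 of 16 had a region, and 2 passed, among them Huwe1, a ubiquitin ligase (higher, adjusted p = 0.036 in the authors' deposited table). Flnc, an actin-crosslinking filamin, had a higher region with 49 overexpression against 2 vector reads, which did not pass. Over the lists, regions of both directions occurred in each list with a listed gene except the plakin and spectrin-repeat one, where all 5 were lower. With 86.9% of all listed regions lower, 5 lower regions out of 5 do not set that list apart. These counts are small, and no list was tested against the rest of the tables.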

How the data were processed

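Total RNA was fragmented mainly to 100 to 200 nt, 10% was kept as input and the rest went through m6A IP, per the labels' protocols. The submitters' processing notes name Trimmomatic 0.36, a read trimmer. Not given in the sources used here are the aligner, the genome build and how regions were called, although their names begin with diffreps.

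The 2 deposited tables hold the authors' comparison, with a fold (a linear ratio above 1, direction in its own column), a p-value, an adjusted p-value and a −log10 score of the p-value per region. Every deposited fold is at least 4 and every p-value under 0.05. No values per library were used here, so no test was fitted, and the planned fallback, counts of the authors' calls at an adjusted p under 0.05, applied.

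Starts were taken as counted from 1, since 845 of 1967 starts are 1 past a multiple of 20 and 910 ends are such multiples; lengths include both ends. Strands come from a set of RefSeq promoters of GRCr8, and this set of promoters has no Nav3 entry. The deposited coordinates use another build. Listed genes within 10 Mb of each member kept their GRCr8 order in at least 98.2% of pairs. Implied reads are the smallest pair of reads whose means, within 0.6% and rounding, give the fold; they were obtained for 1965 regions. Steps were read from means under 6, of which 95.2% (vector, 5.96% by chance) and 96.7% (overexpression, 24.4% by chance) fell on them. Intervals of read ratios are exact (Clopper-Pearson on the split of reads). Python 3.11.15 and scipy 1.17.1 were used.

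The members, lists and rules were chosen with earlier results of these data known. Named were all member regions, other genes with at least 4 regions, and up to 4 genes per list by smallest p; some of these are not reported here. Sequences of the regions are not shown, as no genome of their build was used here.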

Additional observations from a re-analysis of the deposited data

How the results depend on the processing

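The 7 passing lower and 0 passing higher member regions became 5 and 0 at an adjusted p under 0.01. Taking all listed regions gave 21 lower and 3 higher. Leaving out folds with a single decimal left 4 lower, an implied mean of at least 10 left 2 (1 each in Macf1 and Dst), and none was higher in either. A minimum length of 50 bp, merging neighbours within 200 bp and, chosen after seeing the data, at least 10 implied reads left 7 and 0. None of these settings could change the counts. The only region under 50 bp, in Kalrn (21 bp), had not passed, and no member gap was under 200 bp. The fewest vector reads of a passing region were 13, in Nav3. Leaving out Macf1, also chosen after seeing the data, left 3 lower. Counted as genes, the members were 0.29% of the tables in place of 1.22% of regions; matching by gene ID gave 1.22%. Genes with 1 direction numbered 3 also among passing regions and without single-decimal folds, but were then Macf1, Dst and Nav3 in place of Macf1, Dsp and Nav3. Among passing regions the count is no check of agreement. No higher member region passed, so any gene with a passing region holds 1 direction, and Nav3 had only 1 such region. The median gap of 16.2 kb was 16.5 kb between centres and 19.7 kb between passing regions. The median deposited fold of 21.2 for lower regions was 6.63 with 3 reads in place of an implied 0 and 2 as a ratio of reads with the same 3; for higher regions 36.7 became 3.05 and 13. Among single regions, 3 reads in place of 0 moved 14 folds by over 1.5 times, and the ratio of reads moved all 24. No direction changed, but this is no check of direction. Listed folds are at least 4 and a vector read weighs 4.09 times an overexpression read, so counting reads equally could hardly reverse a direction. The fewest reads opposite an empty condition were 4, above the 3 that stood in for 0. In the related lists, genes with lower regions numbered 17 and those with higher ones 7, and among passing regions 3 and 3. Stricter settings keep fewer regions by design, and otherwise the cause was not tested. No paired analysis was possible because only the authors' comparison, without values by library, was used, and leaving out a library was not run for the same reason. The size of every fold with an empty condition depends on the constant added to the means. As implied reads, 0 overexpression against 4 vector reads were enough to be listed. Depth per library is unknown, and its part was not tested.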
